A study of Mus musculus with 12 samples.

Results

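The collagen genes were followed over 12 Illumina MouseWG-6 BeadChips hybridized with RNA of E16.5 mouse embryos. Their members were chosen by name: every probe whose annotated symbol is a collagen chain (Col, a number, a, a number) and whose detection p was under 0.05 on at least 2 of the 12 arrays. This gave 35 genes by 64 probes, out of 40 collagen genes by 85 annotated probes, and of 19406 gene symbols and 46643 probes on the array. The mutant embryos were S1Pcko (S1P f/f;Col2-Cre), in which site-1 protease is deleted in chondrocytes, where a Col2 promoter drives Cre. The WT embryos were littermates with at least 1 working allele (S1P f/+, with or without Col2-Cre) or floxed littermates without Cre (S1P f/f), so that the WT group may hold embryos that carry Cre. All were C57BL/6. The 6 groups were chondroepiphyseal cartilage (2 arrays per genotype), entire long bones (3 arrays per genotype) and calvaria (1 array per genotype). The long bones include their cartilage ends, and S1Pcko embryos form no endochondral bone. The arrays are named here by their number. In cartilage these were 1920 and 1928 for S1Pcko and 1919 and 1927 for WT, and in long bone 1922, 1924 and 1930 for S1Pcko and 1921, 1923 and 1929 for WT. Arrays 1927 to 1930 are marked amp#2 in their titles, read here as a second amplification, arrays 1923 and 1929 carry the same sample name, and the embryo counts of the study leave a single embryo per genotype for cartilage. The p-values below thus measure the spread between arrays, which may be technical.

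Collagens are triple helices of alpha chains that are hydroxylated, glycosylated and folded in the ER before export. Fibrillar collagens build the banded fibrils of bone and skin (Col1a1, Col1a2, Col3a1) or of cartilage (Col2a1, Col11a1, Col11a2), and FACIT collagens such as type IX sit on the surface of fibrils. Network collagens form the sheets of basement membranes (type IV) or the matrix of hypertrophic cartilage (Col10a1), and transmembrane collagens stay anchored in the cell surface. Beaded filament collagen (type VI) surrounds cells of most connective tissues.

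By class, the members were 23 probes of 11 fibrillar genes, 11 probes of 7 network genes, 11 probes of 6 FACIT genes, 7 probes of 4 transmembrane genes, 5 probes of 2 beaded filament genes and 7 probes of 5 other genes. Of the 64 probes, 51 were detected on all 12 arrays. The choice left out 21 probes, and no member remained of Col19a1, Col4a3, Col4a4, Col6a4 and Col6a6. Just inside the detection limit, probes of Col26a1 (101980301) and Col4a6 (4560373) were detected on 2 arrays. Just outside it, probes of Col11a1 (2810136) and Col13a1 (4120079) were detected on 1 array. Values are log2 signals after background correction and quantile normalization, on which the lowest detected probe of an array lay between 4.96 and 5.09. A gene is given by its brightest probe unless another is named. A probe is said to have risen or fallen when its limma p, adjusted by the Benjamini-Hochberg method over 24328 probes, was under 0.05 and its change was at least 2-fold.

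The arrays were of similar depth, with 20555 to 21978 detected probes. Within long bone, 1 array of each genotype stood apart from the other 2. Between WT arrays 1921 and 1923, 14 collagen probes were at least 2-fold apart, against 1.91% of all probes. Between WT arrays 1921 and 1929 there were 11 such collagen probes against 2.98% of all, and between 1923 and 1929 there was 1, against 0.641%. All the collagen probes that far apart between array 1921 and either of its partners were higher on array 1921. Between S1Pcko arrays 1922 and 1924 there were 6 (2.55% of all probes), between 1922 and 1930 there were 5 (2.52%), and between 1924 and 1930 there were 0 (0.251%). The mean of 7 cartilage markers moved with these collagens, at 12.88 on array 1921 against 11.87 and 11.91 on the other WT arrays, and at 12.19 on array 1922 against 12.81 and 12.69 on the other S1Pcko arrays. The mean of 12 skeletal muscle markers was 12.67 on array 1922 against 10.82 on both others of S1Pcko, and between 12.28 and 12.39 in WT long bone. Array 1922 was also above the other S1Pcko arrays in the means of epidermis markers (7.49, against 6.07 on both others), osteoblast markers (11.36, against 10.63 and 10.67) and osteoclast markers (8.95, against 8.09 and 8.32). The part of any of these in the results was not tested. Each count of collagen probes that passed is given with and without arrays 1921 and 1922. Counts of markers, of enzymes and of groups that did not overlap are given with all arrays only. For counts at an unadjusted p, of collagens or of markers, the share of all probes was not counted, so that they show no excess. The 3 probes of Mbtps1, the gene of site-1 protease, changed by -0.22 to 0.06 in cartilage, but where they lie relative to the deleted part was not known here, so that they do not check the genotype.

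The first comparison asks which collagen transcripts differ when cartilage lacks site-1 protease. None of the 64 collagen probes rose or fell in S1Pcko cartilage, against 2.34% of all probes called in that comparison with limma (1.05% higher, 1.29% lower). Without adjustment, 16 probes (9 genes by their brightest probe) had a p under 0.05, and in the other settings tried 0 to 6 collagen probes passed. The share of all probes with an unadjusted p under 0.05 was not counted, so that the 16 cannot be called many or few. The median change of the 35 genes was -0.00, and it was 0.02 over all probes. With 2 arrays against 2, 21 of the 35 genes had groups that did not overlap (11 higher, 10 lower), as did 52.4% of all probes (27.5% higher, 24.8% lower).

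Col2a1, which encodes the main collagen of cartilage, stood near the top of the signal range. Its brightest probe (3940500) read 14.48 and 14.50 in S1Pcko cartilage, against 14.22 and 14.11 in WT cartilage. The S1Pcko arrays were higher by 0.32 (SE 0.16, limma adjusted p = 0.287). A second probe (104610193) gave 0.05, and a dimmer probe (460446) varied from 9.52 to 10.97 over the 4 arrays, with overlapping groups. Each array held 9 to 12 collagen probes among its brightest 1%.

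The collagens that share fibrils with Col2a1 read lower in S1Pcko cartilage without passing the test. Col11a1, a chain of the thin cartilage fibrils, was at 9.16 and 9.05 in S1Pcko, against 9.84 and 10.37 in WT. The change was -1.003 (SE 0.34, limma adjusted p = 0.125), and all 4 Col11a1 probes were lower on both S1Pcko arrays. Its partner Col11a2 was at 7.39 and 7.06 in S1Pcko and 8.03 and 8.16 in WT, a change of -0.87 (SE 0.31), while its dim second probe changed by 0.31. Col9a1, a chain of the FACIT collagen of cartilage fibrils, was also lower by all 4 of its probes, from -0.36 for the brightest to -1.45 (SE 0.59, limma adjusted p = 0.200) for probe 105860463. That probe read 11.52 and 11.06 in S1Pcko, against 12.83 and 12.65 in WT. Col9a2 was at 11.93 and 12.17 in S1Pcko and at 12.66 and 12.99 in WT (-0.78, SE 0.37), and Col9a3, close to the detection limit, changed by -0.34 (SE 0.43). The mean of 7 cartilage markers was 12.81 and 12.80 in S1Pcko cartilage, against 13.36 and 13.42 in WT. None of the 7 passed (limma, 3 with an unadjusted p under 0.05), and the furthest were Hapln1 (-1.49) and Chad (-1.34). The mean of 7 osteoblast markers was 8.78 and 8.77 in S1Pcko cartilage, against 8.002 and 7.98 in WT. Of these, Ibsp and Ifitm5 rose in S1Pcko (2.08 and 2.10) and Smpd3 fell (-1.55). Their part in the collagen values was not tested.

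Col10a1, the network collagen of hypertrophic chondrocytes, had the largest change of a brightest probe in cartilage. It was at 9.57 and 9.62 in S1Pcko, against 10.71 and 10.91 in WT. The 2 groups lay far apart beside their spread (SD 0.03 and 0.14), and yet the change of -1.22 (SE 0.58) had a limma adjusted p of 0.272. The SE is shared over the 4 groups, and it held the wide spread of WT long bone (SD 1.30), where array 1921 read 12.86 and arrays 1923 and 1929 read 10.57 and 10.63. Without array 1921 the same change of -1.22 had an SE of 0.18 and an adjusted p of 0.00378. Over the 22 alternatives that p ranged from 0.00100 to 0.759. Of 5 other hypertrophic genes 1 fell in S1Pcko cartilage, Ihh, a signal of early hypertrophic chondrocytes (-1.85, adjusted p = 0.0331), and 0 rose (median -0.27), against 1.29% of all probes lower and 1.05% higher. The other 4 were at -0.81 (Panx3, adjusted p = 0.0257, under 2-fold), -0.27 (Pth1r), 0.27 (Mmp13) and 0.87 (Alpl).

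Of the fibrillar collagens of bone and soft tissue, none passed the test in cartilage. Col1a1 read 14.04 and 14.35 in S1Pcko and 13.52 and 14.38 in WT. Col1a2 read 9.10 and 8.94 in S1Pcko and 9.11 and 9.15 in WT, a change of -0.11 (SE 0.23). Col3a1, found in vessels and loose connective tissue, gave -0.47 (SE 0.19) by its brightest probe and 0.51 (SE 0.48) by its second, so that its 2 probes disagreed in sign. Over the 11 fibrillar genes the median was -0.11, with 4 higher and 7 lower. The 7 network genes had a median of -0.17 and the 6 FACIT genes one of -0.23. Among network genes Col4a6, a basement membrane chain, was lowest after Col10a1, at 6.58 and 6.29 in S1Pcko against 7.32 and 6.98 in WT (-0.72, SE 0.25, limma adjusted p = 0.132). The genes of the basement membrane pair Col4a1 and Col4a2 start head to head, their RefSeq promoter windows on chromosome 8 (GRCm38.p6) overlapping by 78 bases, and changed by 0.18 (SE 0.19) and 0.31 (SE 0.15).

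The 4 transmembrane genes all read higher in S1Pcko cartilage, with a median of 0.55, but none passed the test and 51.9% of all probes read higher and 48.1% lower. Col13a1, an adhesion collagen of muscle and connective tissue, was at 5.79 and 6.51 in S1Pcko and at 4.89 and 5.44 in WT (0.99, SE 0.32, limma adjusted p = 0.113). Its probe was not detected on WT array 1919 (4.89), so that the size of this change rests in part on a value below detection. Col25a1, known from neurons and their targets in muscle, was at 5.97 and 5.94 in S1Pcko, against 5.30 and 5.11 in WT. Its change of 0.75 (SE 0.20) had an adjusted p of 0.0551, and the second Col25a1 probe gave 0.40. With plain background subtraction, or with the values as the authors normalized them, the change was 1.14 and 1.16 and passed both thresholds (adjusted p = 0.0489 and 0.0479, range over alternatives 0.0317 to 0.559). Col23a1 and Col17a1 changed by 0.34 (SE 0.24) and 0.20 (SE 0.25). All 4 genes were dim, with group means from 5.16 to 7.21 in cartilage.

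Outside these classes, Col26a1 was at 10.76 and 10.88 in S1Pcko cartilage and at 10.12 and 10.11 in WT (0.70, SE 0.22, adjusted p = 0.106). Col18a1, the basement membrane collagen from which endostatin is cut, gave 0.51 (SE 0.20), and Col15a1, its relative, gave -0.53 (SE 0.32) with overlapping groups. Both type VI chains changed little, Col6a1 by -0.09 (SE 0.17) and Col6a2 by -0.25 (SE 0.28).

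**Figure D1:**
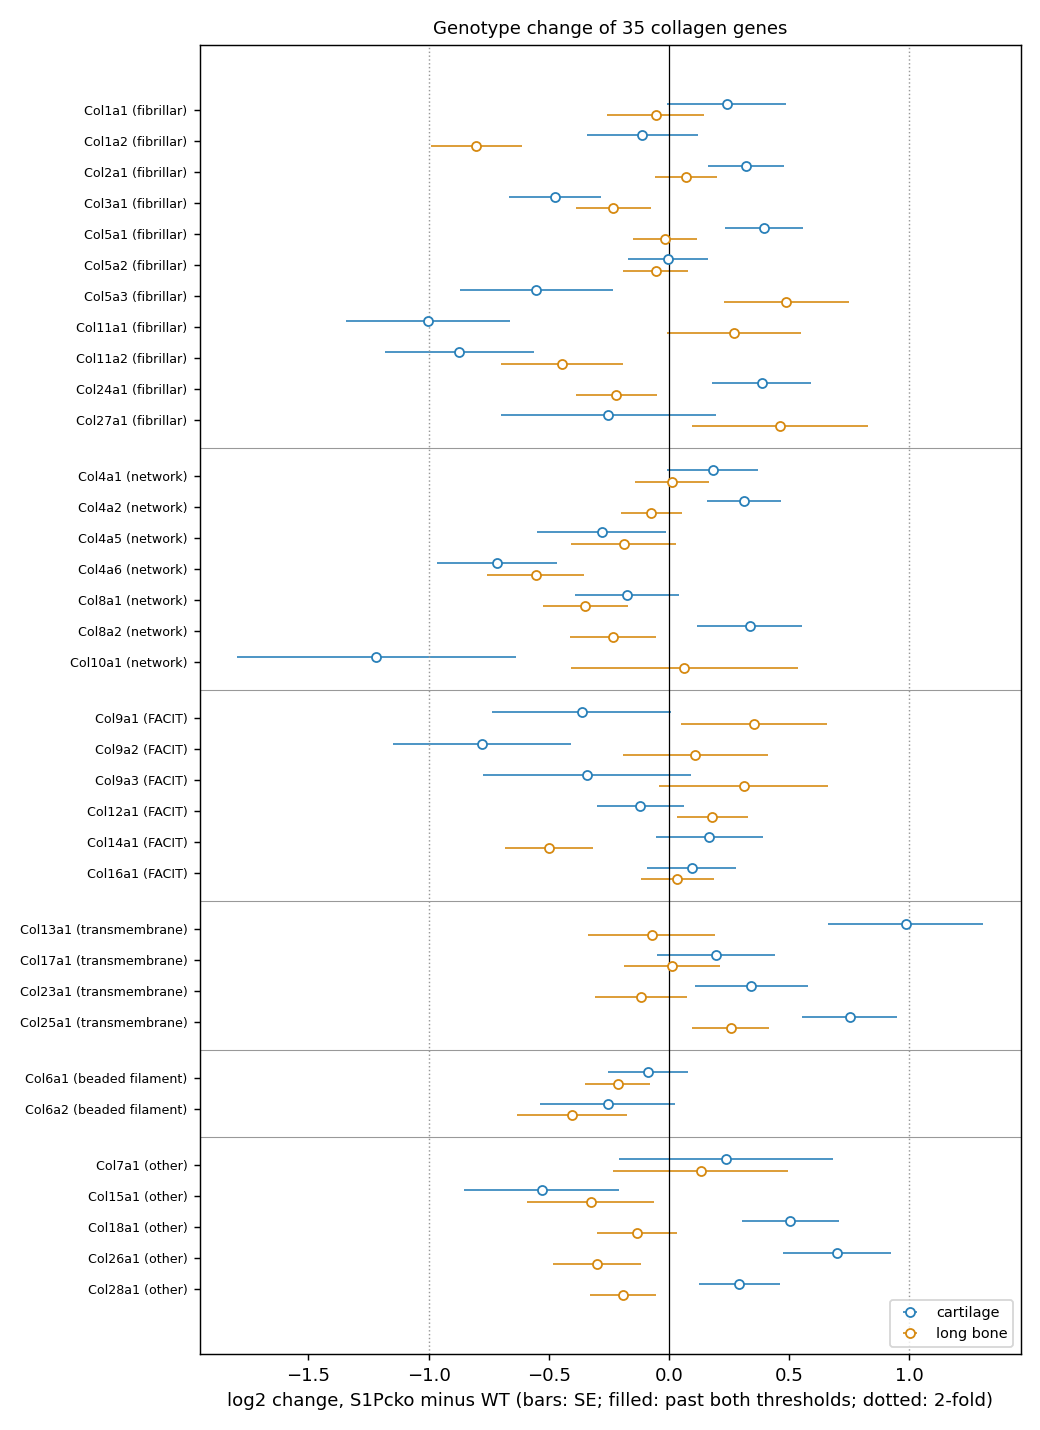
Log2 change between S1Pcko and WT for the brightest probe of each of 35 collagen genes, ordered by class, in cartilage (blue, 2 arrays per genotype) and long bone (orange, 3 per genotype). Bars are the SE of the limma fit, dotted lines mark a 2-fold change, and no point is filled because no brightest probe passed both thresholds. Col10a1 lay lowest (-1.22) and Col13a1 highest (0.99) in cartilage.

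The second comparison asks the same of entire long bones, which by the study's account hold no endochondral bone in S1Pcko. Again none of the 64 probes rose or fell, against 1.00% of all probes (0.600% higher, 0.403% lower). With limma and no adjustment, 8 probes (3 genes by their brightest probe) had a p under 0.05, and in the other settings 0 to 8 probes passed. The share of all probes at that unadjusted cutoff was not counted here either. The medians by class were -0.05 (fibrillar), -0.19 (network), 0.15 (FACIT) and -0.03 (transmembrane), with -0.07 for all 35 genes and 0.00 for all probes, of which 50.4% read higher and 49.6% lower. In bulk tissue, fewer cells of a type and less RNA per cell cannot be told apart. Of the 35 genes, 2 had groups that did not overlap, both lower and 0 higher, where 17.9% of all probes had such groups (9.43% higher, 8.51% lower). Of 6 osteoclast markers 5 fell in S1Pcko long bone (median -1.39), and of 5 erythroid markers 3 fell (median -1.23), while 0 of 7 osteoblast markers passed (median -0.22, 1 with an unadjusted limma p under 0.05). Their part in the collagen values was not tested.

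The 2 genes whose long bone groups did not overlap were Col1a2, the second chain of the bone collagen, and Col4a6. Col1a2 read 10.22, 10.41 and 10.47 in S1Pcko long bone, against 10.70, 11.51 and 11.29 in WT, so that every S1Pcko array lay under every WT array. The change was -0.80 (SE 0.19, limma adjusted p = 0.0601). Its partner Col1a1 read 14.40, 14.59 and 14.27 in S1Pcko and 14.39, 14.47 and 14.55 in WT, at the top of the range, so that this probe does not show whether Col1a1 shared the difference. Col4a6 read 6.62, 6.73 and 6.48 in S1Pcko and 7.60, 7.13 and 6.76 in WT (-0.55, SE 0.20, adjusted p = 0.231).

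Col14a1, a FACIT collagen of tendon and skin, had the only collagen probe with an adjusted p under 0.05 here (1570398). It read 9.65, 9.65 and 9.55 in S1Pcko long bone, against 10.31, 10.48 and 10.71 in WT. The change of -0.89 (SE 0.13, limma adjusted p = 0.00558) stayed under 2-fold. Its brighter probe (104060021) gave 10.41, 10.97 and 10.78 in S1Pcko and 10.96, 11.34 and 11.36 in WT, groups that overlap by a small margin (-0.50, SE 0.18). Of 7 markers of tendon and fibrous tissue 0 passed in long bone (median -0.36, 2 with an unadjusted limma p under 0.05), with a mean of 9.96 to 10.10 in S1Pcko and 10.32 to 10.55 in WT, so that their mean did not overlap either. In cartilage, where probe 1570398 gave 0.41, 2 of these 7 markers fell and 0 rose in S1Pcko, with a median of -0.33. Of all probes 1.29% fell and 1.05% rose there. The marker means were 10.21 and 10.05 in S1Pcko cartilage, against 10.58 and 10.53 in WT. The part of these markers in the Col14a1 values was not tested.

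For the cartilage collagens no difference in long bone passed the test, and their spread was wide. Col10a1 read 11.69, 11.37 and 11.20 in S1Pcko and 12.86, 10.57 and 10.63 in WT, where array 1921 was above and the other 2 below all S1Pcko arrays. Col2a1 read 14.25, 14.43 and 14.50 in S1Pcko and 14.41, 14.17 and 14.38 in WT. For Col9a1 probe 4570369 the values were 8.74, 9.99 and 9.60 in S1Pcko and 10.04, 8.13 and 7.76 in WT. Array 1921 was highest and array 1922 lowest of its own genotype, and the groups overlapped.

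Without arrays 1921 and 1922, an alternative chosen after seeing the data, 8 collagen probes rose and 0 fell in S1Pcko long bone, against 1.23% of all probes higher and 1.73% lower. These were probes of Col9a1 (2), Col27a1 (2), Col2a1, Col3a1, Col6a1 and Col9a3, of which the dim Col2a1 probe 460446 changed most (2.65, SE 0.37, limma adjusted p = 0.00154, on the 4 remaining arrays). In cartilage the same alternative left every change as it was, and 6 probes fell and 0 rose, against 1.73% of all probes lower. The SE of these 6 was 0.16 to 0.31 without both arrays, against 0.34 to 1.05 with them, while for some other collagen probes it grew (Col1a1 to 0.255 without both arrays, against 0.247 with them). They belonged to Col9a1 (2), Col11a1 (2), Col10a1 and Col27a1 (1.20% of all probes rose). Leaving out array 1921 alone gave 3 lower probes in cartilage (Col10a1 and 2 of Col11a1, 1.48% of all) and 0 higher (1.11%) and, in long bone, 2 higher (Col3a1 and Col9a1, 0.847%) and 1 lower, Col1a2 (-1.04, SE 0.15, adjusted p = 0.00406, 0.547% of all). Leaving out array 1922 alone gave 1 lower probe in cartilage (1.48% of all, and 1.12% higher) and 1 higher in long bone (0.855%, and 1.49% lower), both times Col27a1 probe 101780717. The 4 long bone arrays left in the first alternative include both that carry the same sample name, so that their spread may be that of amplification alone.

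**Figure D2:**
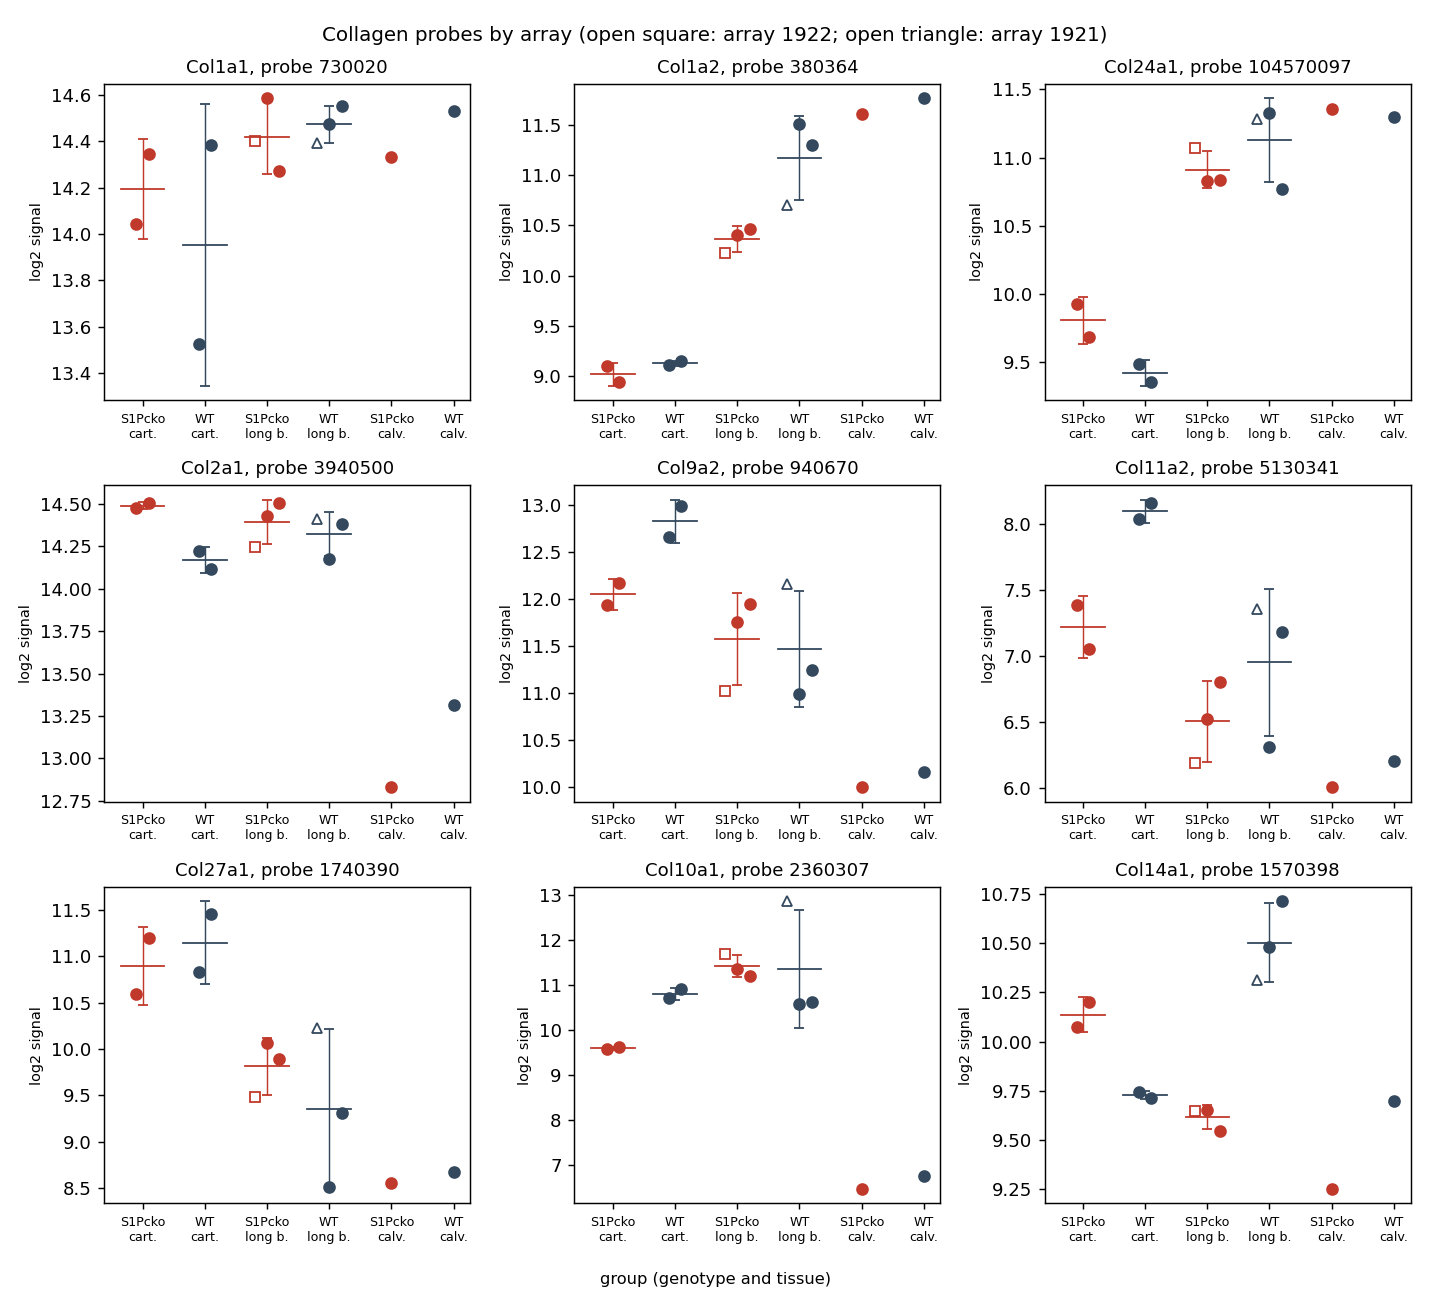
Log2 signal of 9 collagen probes on each array, S1Pcko in red and WT in dark grey, by tissue, with group means and SD where a group has more than 1 array. The open square is S1Pcko long bone array 1922 and the open triangle WT long bone array 1921, which lies above its partners for Col10a1 (12.86), Col9a2 (12.16) and Col27a1 (10.23) and below them for Col1a2 (10.70).

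Whether the genotype change differed between the tissues was tested by the difference of both changes, cartilage minus long bone. It passed for 1 of 64 collagen probes, the Col14a1 probe 1570398, against 0.341% of all probes (0.148% higher, 0.193% lower). That probe read 10.07 and 10.20 in S1Pcko cartilage and 9.74 and 9.71 in WT cartilage (0.41, SE 0.16, adjusted p = 0.195), where in long bone it was lower in S1Pcko. The difference was 1.29 (SE 0.21, limma adjusted p = 0.0303). It was between 1.08 and 1.40 in all 22 alternatives and missed a threshold in 11 of them (adjusted p from 0.00618 to 0.866), among them the fit with the replicate number of the labels as a block, which left 0 collagen probes. The brighter Col14a1 probe pointed the same way (0.67, SE 0.29, adjusted p = 0.319). Without adjustment, 15 probes had a p under 0.05, a cutoff at which the share of all probes was not counted. Without arrays 1921 and 1922 the difference passed for 17 collagen probes, 14 of them lower and 3 higher (2.48% and 2.46% of all probes). The higher ones were in Col13a1, Col14a1 and Col26a1 and the lower ones in Col2a1, Col3a1, Col9a1, Col9a2, Col9a3, Col10a1, Col11a1 and Col27a1. Without array 1921 alone 2 were higher (0.715%) and 4 lower (1.13%), and without array 1922 alone 1 was higher (1.06%) and 1 lower (0.707%).

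The remaining comparison is between the tissues. In WT, 6 collagen probes rose and 4 fell in cartilage relative to long bone, against 1.59% and 2.31% of all probes (3.90% in both directions). In S1Pcko, 0 rose and 3 fell, against 0.177% and 0.781% (0.958% in both). In S1Pcko without array 1921, 1 rose and 4 fell (0.267% and 0.843% of all), without array 1922, 0 rose and 3 fell (0.485% and 0.732%), and without both, 1 rose and 5 fell (0.658% and 0.880%). Leaving out a cartilage array leaves a single array in its group, so that no count is given for it in this paragraph. Among fits that left out 1 array, the lowest count of each genotype came without a cartilage array, as stated near the end. Over all fits that left out 1 array, the S1Pcko difference ranged from -1.43 to -1.26 for Col1a2. For the 2 Col24a1 probes it ranged from -1.22 to -0.98 and from -1.35 to -0.84. In WT, that of Col11a2 ranged from 0.82 to 1.34, in part under 2-fold. Whether a tissue difference itself differed between genotypes is the difference tested above, which none of these probes passed. The comparisons between tissues use the same arrays as those between genotypes.

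The 5 promoters below are shown because their genes passed in opposite directions between the tissues, the first 2 lower in cartilage and the other 3 higher in WT cartilage, out of 7 such genes. They are the 250 bases before the start of each gene in RefSeq (GRCm38.p6), 5′ to 3′ on the strand of the gene, with TATAAA and GGGCGG (or CCGCCC, its complement) in capitals.
Col1a2 (chr6:4505368-4505617, plus strand): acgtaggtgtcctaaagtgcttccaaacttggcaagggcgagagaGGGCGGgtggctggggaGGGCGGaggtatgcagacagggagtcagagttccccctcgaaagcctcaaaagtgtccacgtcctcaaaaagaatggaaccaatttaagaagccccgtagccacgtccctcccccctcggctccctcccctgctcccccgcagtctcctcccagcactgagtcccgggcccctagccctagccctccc
Col24a1 (chr3:145292222-145292471, plus strand): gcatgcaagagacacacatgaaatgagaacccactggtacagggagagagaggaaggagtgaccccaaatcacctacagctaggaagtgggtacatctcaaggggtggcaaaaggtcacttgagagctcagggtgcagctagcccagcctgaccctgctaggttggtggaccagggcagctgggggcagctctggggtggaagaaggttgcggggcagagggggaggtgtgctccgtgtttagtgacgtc
Col27a1 (chr4:63215162-63215411, plus strand): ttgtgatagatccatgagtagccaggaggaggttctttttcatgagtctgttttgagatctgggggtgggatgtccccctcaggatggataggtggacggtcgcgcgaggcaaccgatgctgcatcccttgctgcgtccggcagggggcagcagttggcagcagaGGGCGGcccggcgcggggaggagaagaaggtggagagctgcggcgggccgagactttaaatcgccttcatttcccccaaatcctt
Col9a2 (chr4:121039316-121039565, plus strand): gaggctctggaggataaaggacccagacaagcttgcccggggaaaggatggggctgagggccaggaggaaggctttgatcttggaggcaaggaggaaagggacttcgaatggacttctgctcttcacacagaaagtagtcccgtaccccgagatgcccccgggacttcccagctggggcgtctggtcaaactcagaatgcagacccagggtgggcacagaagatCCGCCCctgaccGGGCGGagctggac
Col11a2 (chr17:34038888-34039137, plus strand): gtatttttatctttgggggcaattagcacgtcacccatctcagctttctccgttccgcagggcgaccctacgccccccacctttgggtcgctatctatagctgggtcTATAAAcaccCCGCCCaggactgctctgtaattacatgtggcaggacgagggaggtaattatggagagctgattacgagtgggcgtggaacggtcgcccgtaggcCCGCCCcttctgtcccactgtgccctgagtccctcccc

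RefSeq windows of 300 bases, searched on both strands, matched 28 of the 35 genes (31 windows). GGGCGG, the letters of the GC box, was in windows of 19 of the 28 genes, among them 4 of the 5 shown here, and in 35.7% of 32851 windows of all genes. TATAAA was in 5 of 28 and in 13.6% of all windows, and ACAAAG, a word of SOX sites, in 4 of 28 and in 18.7%. TCACNCCAC, the letters of a sterol regulatory element, was in 2 of 28 genes (Col11a2 and Col17a1) and in 1.24% of all windows. None of the words searched separated the shown genes by their direction.

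Col1a2, whose promoter is shown first, and Col24a1, a fibrillar collagen of forming bone, were lower in cartilage in both genotypes. Col1a2 was at 9.02 ± 0.11 in S1Pcko cartilage and 10.37 ± 0.13 in S1Pcko long bone, and at 9.13 ± 0.02 in WT cartilage and 11.17 ± 0.42 in WT long bone (SD, n = 2 and 3 arrays). The differences were -1.35 (SE 0.21, limma adjusted p = 0.0115) in S1Pcko and -2.04 (SE 0.21, adjusted p = 0.000255) in WT. Col24a1 was at 9.93 and 9.69 in S1Pcko cartilage, against 11.07, 10.83 and 10.84 in S1Pcko long bone. In WT it was at 9.49 and 9.35 in cartilage, against 11.29, 11.33 and 10.77 in long bone. Its differences of -1.10 (SE 0.19) and -1.71 (SE 0.19) passed in both genotypes (adjusted p = 0.0164 and 0.000355), as did those of its second probe (-1.10 and -1.80). In S1Pcko the brightest Col24a1 probe missed a threshold in 3 of 22 alternatives and the second probe in 12 of 22. Col13a1 was lower in WT cartilage (-1.82, SE 0.29, adjusted p = 0.00372) and stood at -0.76 (SE 0.29) in S1Pcko. Its probe was not detected on WT cartilage array 1919 (4.89), so that the size of the WT difference rests in part on a value below detection. The mean of 7 osteoblast markers was also lower in cartilage, at 8.77 and 8.78 in S1Pcko cartilage against 10.63 to 11.36 in S1Pcko long bone, and at 7.98 and 8.002 in WT cartilage against 10.86 to 11.04 in WT long bone. Its part in these differences was not tested.

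Higher in WT cartilage were Col27a1, a fibrillar collagen of cartilage and the growth plate, Col11a1, Col11a2 and Col9a2. Col27a1 was at 10.83 and 11.46 in WT cartilage, against 10.23, 8.51 and 9.31 in WT long bone (1.79, SE 0.41, limma adjusted p = 0.0197), and a second probe gave 1.90. Col9a2 was at 12.66 and 12.99 in WT cartilage, against 12.16, 10.99 and 11.25 in WT long bone (1.36, SE 0.34, adjusted p = 0.0284). Col11a2 gave 1.14 (SE 0.28, adjusted p = 0.0284), with array 1921 (7.36) highest of the WT long bones. In S1Pcko the same 3 genes differed by 1.08 (SE 0.41), 0.47 (SE 0.34) and 0.71 (SE 0.28) and did not pass. Of Col11a1, probe 105700341 rose in WT cartilage by 1.22 (SE 0.23, adjusted p = 0.00817) and the brightest probe gave 1.03 (SE 0.31, adjusted p = 0.0615). Its dim probe 4810524 passed too and is described with its detection further on. Of 7 cartilage markers 4 rose in WT cartilage (median 1.18), and their mean was 13.36 and 13.42 in WT cartilage against 11.87 to 12.88 in WT long bone. In S1Pcko 0 of 7 did (median 0.20, 1 with an unadjusted limma p under 0.05), with 12.80 and 12.81 in cartilage against 12.19 to 12.81 in long bone. Without array 1921, 13 collagen probes rose and 4 fell in WT cartilage (2.36% and 2.61% of all), all 4 Col9a1 probes among those that rose. Without array 1922, 6 rose and 4 fell (1.69% and 2.47%), and without both, 13 rose and 4 fell (2.45% and 2.80%).

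For some collagens the brightest probe differed little between the tissues. That of Col2a1 differed between cartilage and long bone by 0.10 (SE 0.14) in S1Pcko and -0.15 (SE 0.14) in WT, Col16a1 by 0.01 (SE 0.17) and -0.05 (SE 0.17), and Col6a1 by 0.02 (SE 0.15) and -0.11 (SE 0.15). These probes lay between 13.55 and 14.50 on all 10 arrays, near the top of the range, and do not show that the transcripts were at one level. The dimmer Col2a1 probe 460446 was at 1.69 (SE 0.66, limma adjusted p = 0.134) between the tissues in WT and at -0.18 (SE 0.66) in S1Pcko. Without array 1921 its WT difference was 2.35 (SE 0.56, adjusted p = 0.0227) and passed. Col10a1 was lower in cartilage by 1.83 (SE 0.53, limma adjusted p = 0.131) in S1Pcko and by 0.55 (SE 0.53) in WT, neither past the test.

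**Figure D3:**
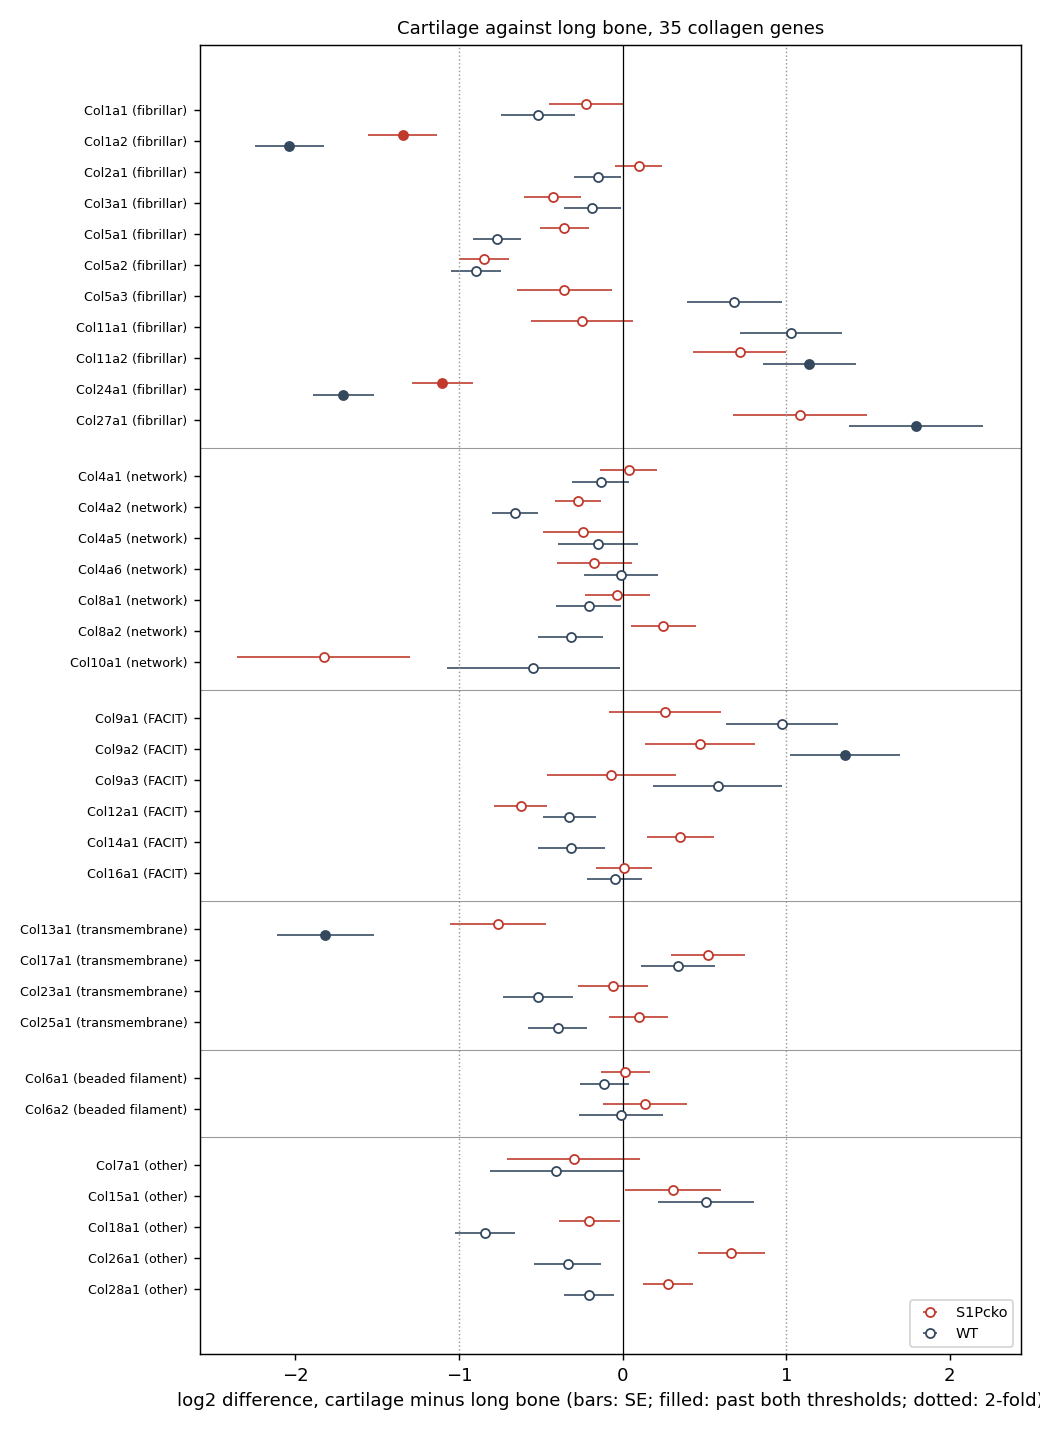
Log2 difference between cartilage and long bone for the brightest probe of 35 collagen genes, by class, in S1Pcko (red) and WT (dark grey), with the SE of the limma fit. Filled points passed both thresholds: Col1a2 and Col24a1 in both genotypes, and Col27a1 (1.79), Col9a2 (1.36), Col11a2 (1.14) and Col13a1 (-1.82) in WT.

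In calvaria, flat bone that forms without a cartilage template, each genotype had 1 array and no test was made. At least 2-fold apart were 2 of 64 probes, against 1.37% of all probes (1.07% higher, 0.300% lower). Both were lower and dim. Col5a2 probe 100130647 read 5.48 in S1Pcko and 6.62 in WT, and Col11a1 probe 4810524 was not detected in S1Pcko and read 6.41 in WT, at least 2.71-fold lower in S1Pcko by the detection floor. Of the 35 genes, 25 were lower in S1Pcko calvaria, with a median of -0.20 against -0.02 for all probes. All 6 FACIT genes and 10 of 11 fibrillar genes were among these 25. By probe the lower ones were 10 of 11 FACIT, 15 of 23 fibrillar and 42 of all 64 probes. The share of all probes on the array that were lower in S1Pcko calvaria was not counted, so that these counts by sign have no baseline. Most genes were lower by little: Col1a1 read 14.33 in S1Pcko and 14.53 in WT, and Col1a2 11.61 in S1Pcko and 11.77 in WT. The furthest were Col4a6 (6.62 in S1Pcko, 7.48 in WT) and Col14a1 (10.19 in S1Pcko, 10.77 in WT) among those lower, and Col8a1, a network collagen of endothelial membranes (11.03 in S1Pcko, 10.39 in WT), among those higher and detected on both arrays. Col17a1, the collagen of hemidesmosomes, was not detected in WT calvaria and was at least 1.54-fold higher in S1Pcko by the detection floor. Col25a1 was not detected in WT calvaria either, and Col5a3 and Col9a3 were detected on neither array, so that the counts by sign include values below detection. The spread between arrays of calvaria is unknown.

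Over the 6 groups, the calvaria stood out by the collagens of cartilage. Col10a1 read 6.47 in S1Pcko and 6.75 in WT calvaria, and between 9.57 and 12.86 on the other 10 arrays. Col2a1, Col9a1, Col9a2, Col9a3 and Col27a1 were also lowest in the calvaria by their group means. Col1a2, Col8a1, Col8a2 and Col26a1 were highest there. Of 35 genes, 16 had their highest group mean in calvaria (6 in S1Pcko, 10 in WT), 12 in cartilage (4 in S1Pcko, 8 in WT) and 7 in long bone (1 in S1Pcko, 6 in WT). Fibrillar genes divided between WT cartilage (4 of 11) and WT calvaria (4 of 11), network genes were highest in calvaria for 5 of 7, and FACIT genes in cartilage for 4 of 6. These are orders of means, with 1 to 3 arrays each, and no order was tested.

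**Figure D4:**
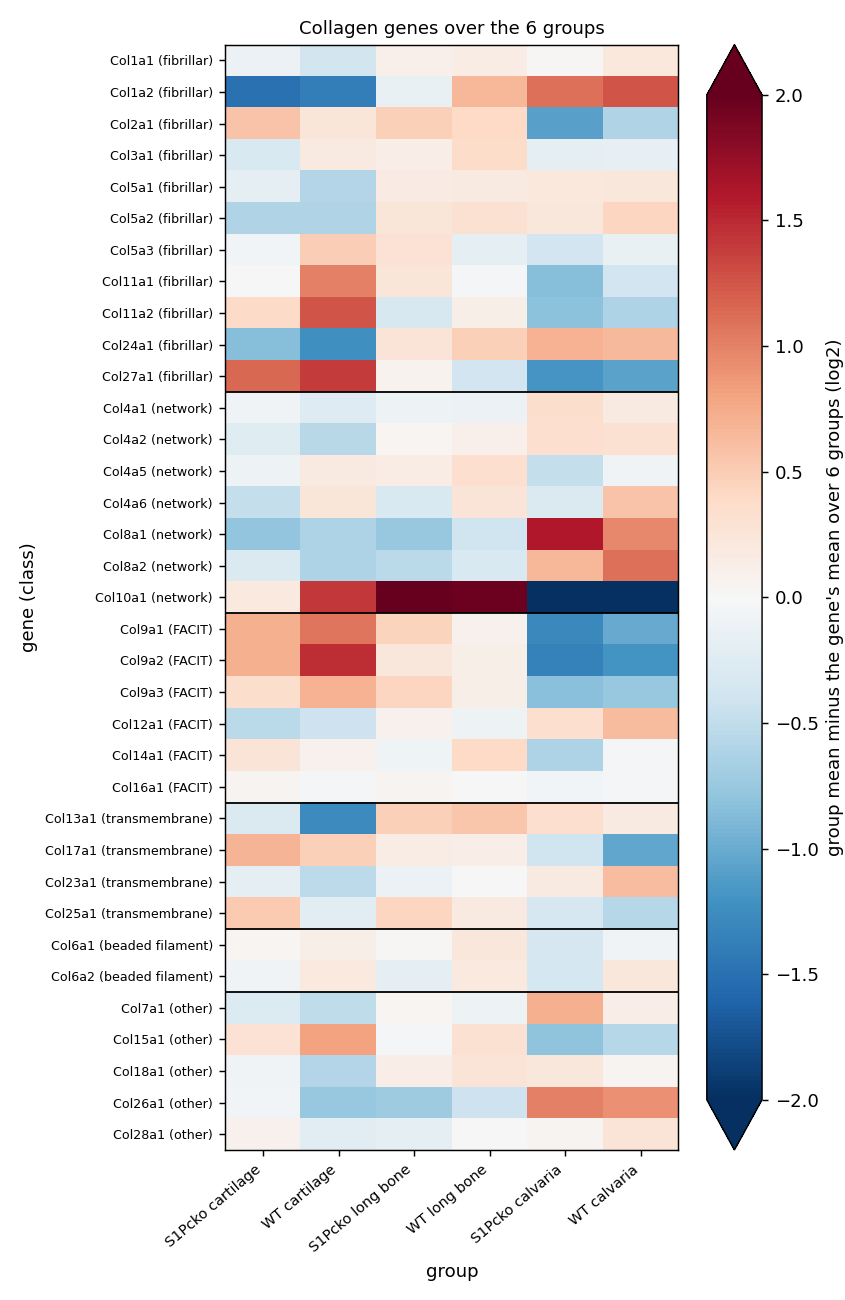
Mean log2 signal of each collagen gene in the 6 groups, after subtracting the mean of the gene over the groups, with genes by class and S1Pcko left of WT in each tissue. The color scale ends at 2 above or below, which Col10a1 in long bone (2.02 in S1Pcko) and calvaria (-2.93 in S1Pcko, -2.65 in WT) reached or passed.

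Probes of one gene did not always move alike. Of 21 genes with more than 1 probe, 13 had the same sign by all probes in the cartilage comparison and 13 in long bone. The 4 probes of Col27a1 shared their sign in each of these comparisons but not their size. Its probe 101780717 was not detected on S1Pcko cartilage arrays 1920 and 1928 and S1Pcko long bone array 1922 (4.43, 4.39 and 4.43), and read 8.85 and 8.54 on S1Pcko long bone arrays 1924 and 1930. In WT it read 7.51 and 7.54 in cartilage and 7.13 to 7.33 in long bone. The other 3 Col27a1 probes were detected on all 12 arrays. In cartilage this probe was at least 5.51-fold lower in S1Pcko by the detection floor, with a limma adjusted p of 0.123. Its spread within S1Pcko long bone (SD 2.47) entered the fit. Without arrays 1921 and 1922 it passed in both tissues and in opposite directions, lower in S1Pcko cartilage and higher in S1Pcko long bone (1.39, SE 0.16, adjusted p = 0.000425).

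Col11a1 probe 4810524 switched in a like way along other lines. It was detected on all 4 cartilage arrays (8.16 and 7.10 in S1Pcko, 9.55 and 8.996 in WT), on WT long bone array 1921 (7.61) and in WT calvaria (6.41). It was not detected on the other 5 long bone arrays and in S1Pcko calvaria, where it read 4.43 to 4.93. In WT the difference between cartilage and long bone was 3.70 (SE 0.73, limma adjusted p = 0.0102). In S1Pcko it was at least 6.13-fold higher in cartilage than in long bone (limma adjusted p = 0.0891). The other 3 Col11a1 probes were detected on all arrays and spanned less.

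**Figure D5:**
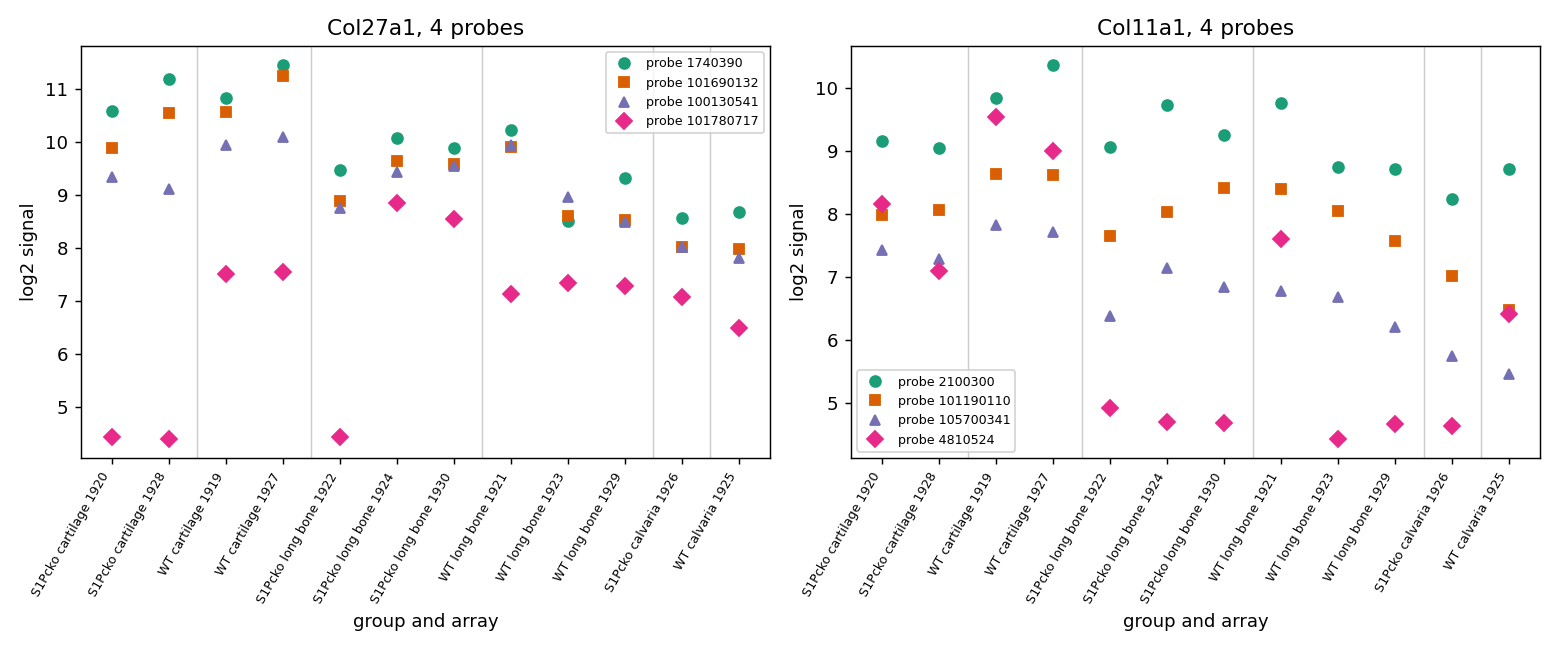
Log2 signal of the 4 probes of Col27a1 (left) and Col11a1 (right) on each of the 12 arrays, ordered by group. Probe 101780717 of Col27a1 lies at 4.39 to 4.43 on 3 S1Pcko arrays and at 6.49 or higher on the rest, and probe 4810524 of Col11a1 lies under 5 on 6 arrays while the other probes of the gene stay higher.

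The enzymes that modify and process procollagen were given by a list of 28 genes on the array, 26 of them measured. In S1Pcko cartilage 4 fell and 0 rose (1.29% and 1.05% of all probes), with a median of -0.36 against 0.02 for all probes. They were Colgalt2, which adds galactose to hydroxylysine (-1.88, limma adjusted p = 0.0394), Pcolce2, an enhancer of the C-propeptide protease (-1.49, adjusted p = 0.00571), Plod2, the lysyl hydroxylase of the telopeptides (-1.20, adjusted p = 0.0337), and P3h4, a part of a lysyl hydroxylation complex of the ER (-1.04, adjusted p = 0.0101). Bmp1, the C-propeptide protease, stood at 0.89 (limma adjusted p = 0.0404) and P3h1 at -0.79 (adjusted p = 0.0250), both under 2-fold. The collagen chaperone Serpinh1 gave 0.07. In long bone 0 of 26 passed in either direction (limma, median -0.14, 5 with an unadjusted p under 0.05), and P3h4 gave -0.83 (adjusted p = 0.0180). Of 8 collagen receptors on the array 5 were measured and 0 passed in either tissue (limma, with an unadjusted p under 0.05 in 1 in cartilage and 0 in long bone). The nearest was Itga11, an integrin chain that binds fibrillar collagen, at 0.89 in S1Pcko cartilage (adjusted p = 0.0121), again under 2-fold.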

How the data were processed

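Biotinylated cRNA was hybridized to the arrays. The deposited intensity values of 46643 probes were neither normalized nor background-subtracted, and the scanner and summary software are not given in the sources used here. The authors deposited a detection p-value per probe and array beside them. The authors' own processed intensity values, judged from the values to be background-subtracted and quantile normalized, served as an alternative. Signals were corrected and quantile normalized over 12 arrays with neqc of limma 3.58.1 (R 4.3.3, negative controls inferred from the detection p-values, offset 16). In the platform annotation 32794 probes had 1 gene symbol, 55 several and 13794 none. Probes detected on at least 2 arrays (24328) entered lmFit and eBayes over 10 arrays and 4 groups (6 residual and 5.16 prior degrees of freedom), where the study's methods name a 2-way analysis of variance. A probe not detected on any array of a group is given as a bound, its level there being the higher of its own and the lowest detected signal of each array. The number of arrays limits the precision. The scripts were tested on simulated data.

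Values per array were given by rule for genes that passed between genotypes or in the difference, 8 main skeletal collagens, and up to 4 genes per class with the largest changes (25 genes). Genes named only for their tissue difference, for the probes of one gene or for their promoters were chosen after their values were seen. The members and lists were chosen with earlier results of these data known. Alternatives changed the background correction, scaling, detection filter, variance model, probe summary and arrays used. The labels' replicate numbers follow the amp#2 mark, and arrays of one number deviated together in cartilage (correlation of deviations 0.46) and not consistently in long bone (-0.0965 to 0.129 over 5 pairs that share a number).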

Additional observations from a re-analysis of the deposited data

Results flagged for a closer look

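The genotype change of Col14a1 probe 1570398 differed between the tissues by a test of the difference itself. It was 0.41 (SE 0.16) in cartilage and -0.89 (SE 0.13) in long bone, a difference of 1.29 (SE 0.21, limma adjusted p = 0.0303). This difference missed a threshold in 11 of 22 alternatives, and that of the brighter Col14a1 probe did not pass. With at most 3 arrays in a group, Dixon's test of outlying values was not run, so that no single value was tested in that way.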

How the results depend on the processing

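Of 1402 alternative values of 64 named results, 1300 kept their direction and their side of the thresholds. Of the rest, 69 no longer passed, 8 newly passed and 25 changed sign. Most of the 64 had not passed to begin with, and the 69 could come only from those that had. Leaving out an array of 1 tissue also leaves the genotype change of the other as it was. The 1300 are thus no measure of how stable the passing results were. Shares of all probes that passed stand in parentheses. Between genotypes in cartilage, 1 collagen probe (Col25a1) passed with the median undetected signal subtracted (2.43%) and 1 with the authors' processed values (2.40%). Without arrays 1921 and 1922 (chosen after seeing the data) 6 passed (2.93%), against 0 (2.34%). In long bone 8 passed without both arrays (2.96%), against 0 (1.00%). For the difference of the genotype changes, 0 passed under median scaling (0.349%), with the replicate block (0.164%) or with the mean of the probes of a gene (0.540% of genes). Without both arrays 17 passed (4.94%), against 1 (0.341%). Between tissues in S1Pcko 6 passed without both arrays (1.54%), against 3 (0.958%). In WT 6 passed with no filter (1.67%) and 5 with the mean of the probes of a gene (3.89% of genes). Without both arrays 17 passed in WT (5.25%), against 10 (3.90%). The arrays not marked amp#2 hold a single cartilage array per genotype, so that no count is given for them alone. In calvaria 0 collagen probes were 2-fold apart with no background correction (0.501% of all probes), against 2 (1.37%). The replicate block left the other counts at 0, 0, 3 and 10 (2.29%, 0.876%, 0.859% and 3.82%). Leaving out 1 array at a time gave 0 to 3 probes in cartilage, 0 to 3 in long bone, 0 to 6 for the difference, 0 to 5 between tissues in S1Pcko and 4 to 17 in WT, the highest each time without WT long bone array 1921. Between tissues, the lowest came without either S1Pcko cartilage array (0 in S1Pcko) and without WT cartilage array 1927 (4 in WT).

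Values that changed sign were all ones that had not passed. With the arrays not marked amp#2 alone, the long bone changes were 0.060 for Col1a1, -0.19 for Col10a1, -0.18 for Col9a2 and 0.19 for Col13a1. Leaving out 1 array at a time, the cartilage change ranged from -0.19 to 0.67 for Col1a1, from -0.35 to 0.0048 for Col8a1, from -0.018 to 0.36 for the brighter Col14a1 probe, from -0.068 to 0.46 for Col17a1 and from -0.56 to 0.047 for Col6a2. The long bone change ranged from -0.14 to 0.021 for Col1a1, from -0.0033 to 0.14 for Col2a1, from -0.33 to 0.82 for Col10a1, from -0.13 to 0.46 for Col9a2, from -0.052 to 0.74 for Col9a3, from -0.35 to 0.070 for Col13a1, from -0.14 to 0.16 for Col17a1 and from -0.27 to 0.048 for Col23a1. The cause was not tested.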
